A study of Danio rerio with 72 samples.

Results

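The gene smu1b (ENSDARG00000051970) is 1 of 31902 entries in a table of read counts from 72 zebrafish RNA-seq libraries. The libraries came from adult brain regions and larval heads, and smu1b was followed through all 72. It was chosen by its measured values: of the genes tested, it had the lowest p-value for the interaction between fluoxetine and stress in both adult brain regions. Its adult differences between the 4 groups of a region are therefore given as a description, without a test. Its larval values, its average difference between brain regions and its relation to other genes inside a group were not used in that choice and were tested.

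SMU1 proteins carry WD40 repeats and belong to the B complex of the spliceosome, the assembly that cuts introns out of pre-mRNA, at the step when the U4/U6.U5 tri-snRNP has joined and the machine is about to be activated. In human cells SMU1 works as a partner of RED, the product of the IK gene, and in Caenorhabditis elegans the homologous gene was found through its effect on alternative splicing. The second group of genes set beside smu1b below belongs to the circadian clock, a transcriptional loop in which BMAL1, CLOCK and NPAS2 activate genes whose products, among them PER, CRY and REV-ERB proteins, repress that activation.

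All fish carried the SR4G transgene, a reporter of glucocorticoid signalling whose transcript, d4EGFP, has an entry of its own. Fluoxetine, an antidepressant that blocks serotonin reuptake, was given at 54 ug/L from fertilization to day 6, and vehicle fish had 0.0053% ethanol over the same days. Each of the 3 tissues, adult hypothalamus, adult telencephalon and larval heads, had 4 groups of 6 libraries: fluoxetine stressed, fluoxetine unstressed, vehicle stressed and vehicle unstressed. Larval heads were pools of 22 at 6 days, and adult regions were pools of 5 at 6 months. The larval tissue label says heads, but the larval sample titles carry the word whole, and which of the labels holds could not be settled; heads is used for these samples throughout. The sources used here do not give the kind of stressor, the interval from stress to sampling or the time of day. They do not say whether replicates came from separate tanks either, so p-values measure the spread between these pools. Total counts per library were 10188323 to 22823560, and smu1b had between 160 and 10311 of them. Replicates 1 to 3 of each adult group carry library numbers 1 to 24, and replicates 4 to 6 carry numbers 25 to 48. The glucocorticoid receptor target FKBP5 followed the stress labels in all tissues. In the hypothalamus it had 549 to 735 CPM in fluoxetine stressed and 786 to 1023 CPM in vehicle stressed libraries, against 45.2 to 94.6 CPM in fluoxetine unstressed and 29.5 to 95.6 CPM in vehicle unstressed libraries. Summed over 15 telencephalon markers, hypothalamus libraries had 202.2 to 518.6 CPM and telencephalon libraries 1260 to 1886 CPM. The 16 hypothalamus markers summed to 615.5 to 1333 CPM in hypothalamus libraries and 169.7 to 746.4 CPM in telencephalon libraries, so these ranges overlapped.

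In both adult regions smu1b was low in stressed fish raised in vehicle and in no other group. Levels are in CPM, counts per M of the library's TMM-scaled total. In the hypothalamus the lowest, median and highest library had 350, 382 and 436 CPM in fluoxetine stressed fish. Fluoxetine unstressed fish had 342, 400 and 515 CPM. Vehicle stressed fish had 70.7, 82 and 88.3 CPM, and vehicle unstressed fish 344, 373 and 394 CPM. All 6 vehicle stressed libraries lay below all 18 others, and the other 3 groups overlapped one another.

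The telencephalon showed the same order of vehicle stressed against the rest. Its fluoxetine stressed libraries had 249, 275 and 282 CPM as lowest, median and highest. Fluoxetine unstressed libraries had 243, 260 and 268 CPM. Vehicle stressed libraries had 93.5, 105 and 120 CPM, and vehicle unstressed libraries 287, 313 and 368 CPM. Here too the 6 vehicle stressed libraries were below the other 18, and the vehicle unstressed libraries were additionally above all libraries of both fluoxetine groups. A separation of this kind, with every vehicle stressed library below every other library of the region, was seen for 0.185% of the genes tested in the hypothalamus and 0.201% in the telencephalon.

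**Figure D1:**
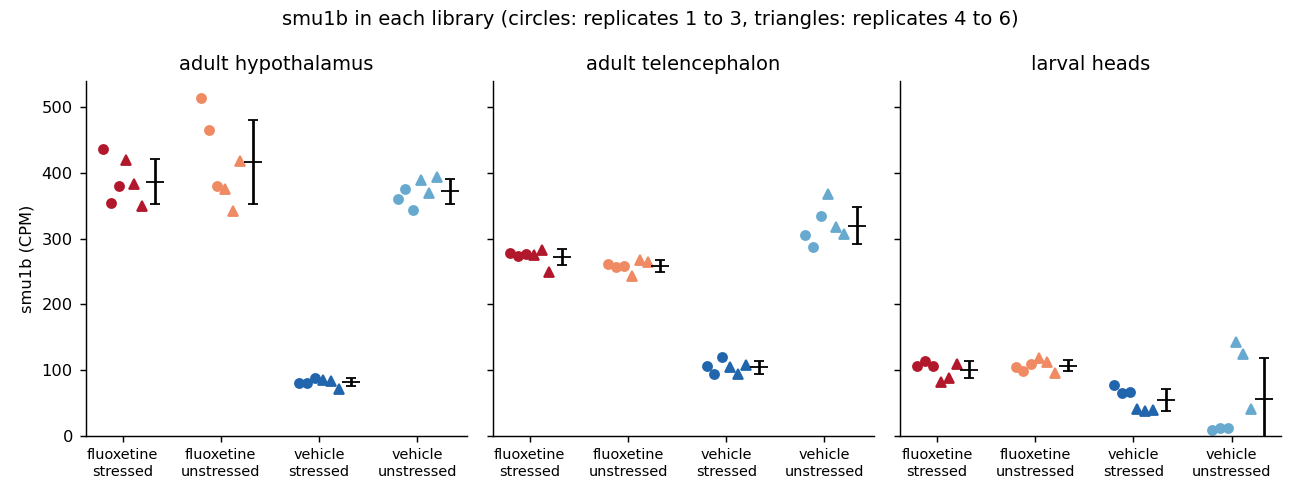
Level of smu1b (vertical axis, CPM, from 0) in each of 72 libraries, by tissue and group; circles are replicates 1 to 3, triangles replicates 4 to 6, and the bar beside each group is the mean with 1 SD (n = 6), cut at 0 for larval vehicle unstressed libraries. Adult vehicle stressed libraries reach at most 88.3 CPM in the hypothalamus and 120 CPM in the telencephalon, below all other adult libraries, and larval vehicle unstressed libraries run from 8.06 to 143 CPM.

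On the log2 scale stress was accompanied by a difference of -2.21 ± 0.09 (SE) in vehicle hypothalamus, a level 0.216 times that of unstressed vehicle fish. In fluoxetine fish the same difference was -0.12 ± 0.09. Fluoxetine over vehicle gave 2.26 ± 0.09 among stressed fish, 4.78-fold, and 0.17 ± 0.09 among unstressed fish. The interaction, the stress difference in fluoxetine fish minus that in vehicle fish, was 2.09 ± 0.13. In the telencephalon the stress difference was 0.07 ± 0.06 in fluoxetine fish and -1.61 ± 0.07 in vehicle fish. Fluoxetine over vehicle was 1.38 ± 0.07 among stressed fish, 2.61-fold, and -0.30 ± 0.06 among unstressed fish, and the interaction was 1.69 ± 0.09. The simple differences of a region share groups and are not separate pieces of evidence. Among 18380 genes tested in the hypothalamus 94 passed for the interaction, and among 18367 in the telencephalon 147 did; smu1b stood first by p in both lists, which is how it was chosen. In a pooled tissue, fewer cells of a type and less smu1b RNA per cell cannot be told apart.

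Both ranges of library numbers held the pattern. Libraries of both ranges had a part in choosing smu1b, so the split is a description and no independent repeat. In the hypothalamus, vehicle stressed libraries had 80.2 to 88.3 CPM within numbers 1 to 24 and 70.7 to 84.4 CPM within numbers 25 to 48. Within the telencephalon these were 93.5 to 120 CPM and 94.4 to 107 CPM. The hypothalamic interaction was 1.89 ± 0.16 with numbers 1 to 24 alone and 2.31 ± 0.17 with numbers 25 to 48 alone (log2 ± SE, 3 libraries per group). The small fluoxetine difference in unstressed hypothalamus did not keep its sign: it was 0.34 ± 0.11 in the first range and -0.02 ± 0.12 in the second.

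Ordered by mean, the 12 groups ran from unstressed fluoxetine hypothalamus (416 ± 64.3 CPM, SD, n = 6 in every group) through stressed fluoxetine hypothalamus (387 ± 34.6), unstressed vehicle hypothalamus (372 ± 18.9) and unstressed vehicle telencephalon (320 ± 28.1). Stressed and unstressed fluoxetine telencephalon followed with 272 ± 11.7 and 258 ± 8.79 CPM. Next came unstressed fluoxetine larval heads (106 ± 8.41), stressed vehicle telencephalon (104 ± 9.74), stressed fluoxetine larval heads (101 ± 12.9) and stressed vehicle hypothalamus (81.3 ± 5.94). Larval heads of vehicle fish were last, with 56.5 ± 61.4 CPM unstressed and 54.5 ± 17.1 CPM stressed. Only 2 steps in this order lay between groups whose libraries did not overlap, the one below unstressed vehicle telencephalon and the one below unstressed fluoxetine telencephalon. The other neighbours overlapped in range. Stressed vehicle adult brain thus overlapped the libraries of the 2 fluoxetine larval groups, which had 81.5 to 118 CPM. Stressed vehicle larval heads had 38.2 to 76.7 CPM. They lay below all stressed vehicle telencephalon libraries (93.5 to 120 CPM) and overlapped those of stressed vehicle hypothalamus (70.7 to 88.3 CPM).

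Averaged over the 4 groups, smu1b was higher in hypothalamus than in telencephalon, by 0.26 ± 0.04 on the log2 scale, 1.2-fold (edgeR quasi-likelihood test, adjusted p = 7.03e-08). In that comparison 61% of 19144 genes passed. The average does not hold for each group, since stressed vehicle fish had 81.3 ± 5.94 CPM in hypothalamus and 104 ± 9.74 CPM in telencephalon, without overlap and in the other direction. Larval heads had less smu1b than the adult regions, by -1.67 ± 0.14 on the log2 scale, 0.314-fold (adjusted p = 2.12e-17), where 88.5% of 21297 genes passed. Age and dissected tissue cannot be told apart there, and the larval labels disagree on whether heads or whole larvae were taken. The paralog SMU1 went the other way in both comparisons. Its difference was -0.20 ± 0.05 for hypothalamus minus telencephalon (adjusted p = 0.000355) and 0.27 ± 0.05 for larval heads minus adult regions (adjusted p = 1.92e-07).

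In larval heads smu1b did not pass the test for any of the 6 differences. Fluoxetine stressed libraries had 81.5, 106 and 113 CPM as lowest, median and highest. Fluoxetine unstressed libraries had 95.5, 107 and 118 CPM. Vehicle stressed libraries had 38.2, 52.8 and 76.7 CPM, and vehicle unstressed libraries 8.06, 25.8 and 143 CPM. The 2 fluoxetine groups were close together, and the vehicle groups had lower medians and wider ranges. All fluoxetine stressed libraries were above all vehicle stressed libraries, a separation found for 2.92% of 20260 genes.

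Averaged over stress, fluoxetine larval heads had 1.89 times the smu1b of vehicle heads (log2 0.92 ± 0.34 SE), which missed the threshold in edgeR (adjusted p = 0.0673; 16% of genes passed) and passed it in DESeq2 (adjusted p = 0.0333). The fluoxetine difference was 0.90 ± 0.49 among stressed larvae (adjusted p = 0.313) and 0.94 ± 0.49 among unstressed larvae (adjusted p = 0.189). Among stressed larvae it passed when only those 2 groups were fitted (0.89 ± 0.18, edgeR adjusted p = 0.00426), without the spread of the unstressed vehicle libraries. The share of all genes passing in that fit is not given here. Stress gave -0.09 ± 0.48 in fluoxetine larvae (adjusted p = 0.975) and -0.05 ± 0.48 in vehicle larvae (adjusted p = 0.95). The interaction was -0.04 ± 0.68 (adjusted p = 0.983).

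The wide larval group was split by replicate number. Vehicle unstressed replicates 1 to 3 had 8.06, 11.7 and 11.4 CPM, while replicates 4 to 6 had 143.3, 124.7 and 39.99 CPM. The same replicates 1 to 3 had 9385, 8398 and 7784 CPM summed over 7 muscle and liver markers, against 1409, 2152 and 1984 CPM in replicates 4 to 6. The part of these markers in the smu1b level was not tested. Vehicle stressed larvae were split the opposite way, with 65.1 to 76.7 CPM in replicates 1 to 3 and 38.2 to 40.4 CPM in replicates 4 to 6. There the first 3 had the lower marker sums (580.7 to 904.4 CPM against 1499 to 3296 CPM). Fluoxetine unstressed larvae had marker sums of 737.5 to 3798 CPM with 95.5 to 118 CPM of smu1b. For fluoxetine stressed larvae these were 1091 to 4393 CPM and 81.5 to 113 CPM. With vehicle unstressed replicates 1 to 3 left out, the fluoxetine difference among stressed larvae was 0.90 ± 0.22 (edgeR adjusted p = 0.0107). In that fit 13.5% of 20524 genes passed for this difference.

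**Figure D2:**
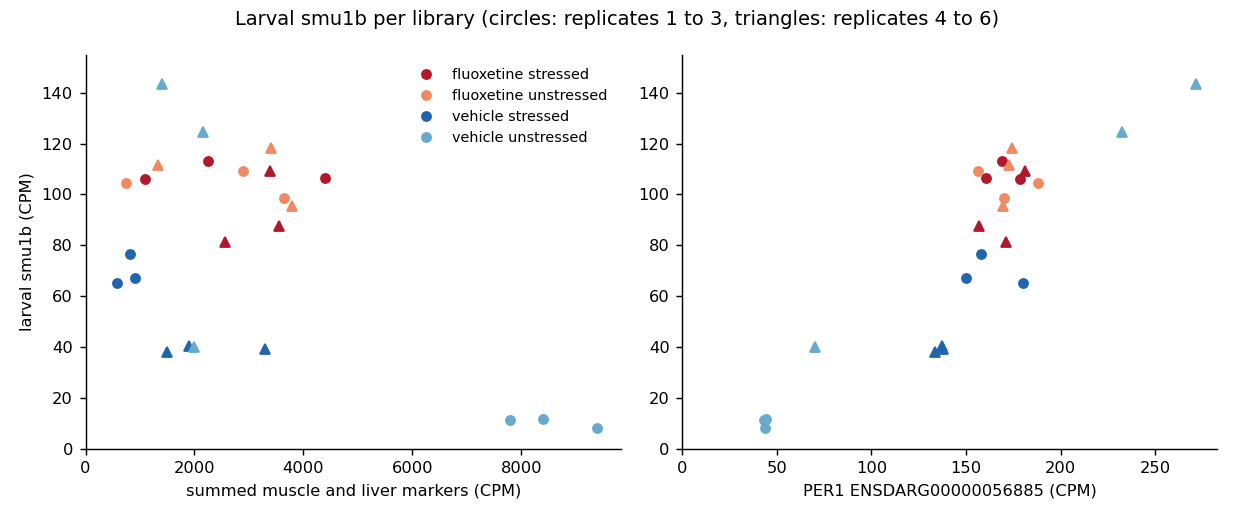
Larval smu1b (vertical axes, CPM) against the summed level of 7 muscle and liver markers (left, CPM) and against PER1 ENSDARG00000056885 (right, CPM), 1 point per library, coloured by group, with circles for replicates 1 to 3 and triangles for replicates 4 to 6. The 3 vehicle unstressed libraries with 7784 to 9385 CPM of markers have 8.06 to 11.7 CPM of smu1b, and the 2 libraries with the most smu1b, 124.7 and 143.3 CPM, also have the most PER1.

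The pattern of smu1b was not shared by its paralog. The entry named SMU1 (ENSDARG00000002538), the other zebrafish gene of that name, had 22.2 to 29.1 CPM in fluoxetine stressed and 23.3 to 33 CPM in fluoxetine unstressed hypothalamus. Vehicle stressed hypothalamus had 18.8 to 24.8 CPM and vehicle unstressed hypothalamus 21.5 to 31.8 CPM. These ranges overlap in every pair. Its interaction was 0.04 ± 0.16 in hypothalamus (edgeR adjusted p = 0.938) and -0.04 ± 0.13 in telencephalon (adjusted p = 0.938), and no simple difference of SMU1 passed in either region or in larval heads. Of the counts of both genes together, smu1b held a median of 94.1% in fluoxetine stressed and 94% in fluoxetine unstressed hypothalamus. It held 78.5% in vehicle stressed and 94.2% in vehicle unstressed hypothalamus. In the telencephalon the median was 91.3% in fluoxetine stressed, 90.2% in fluoxetine unstressed, 80% in vehicle stressed and 92% in vehicle unstressed libraries. Gene lengths were not available, so the shares describe counts and do not compare the levels of the paralogs. How the counting divided reads between the copies is not stated.

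**Figure D3:**
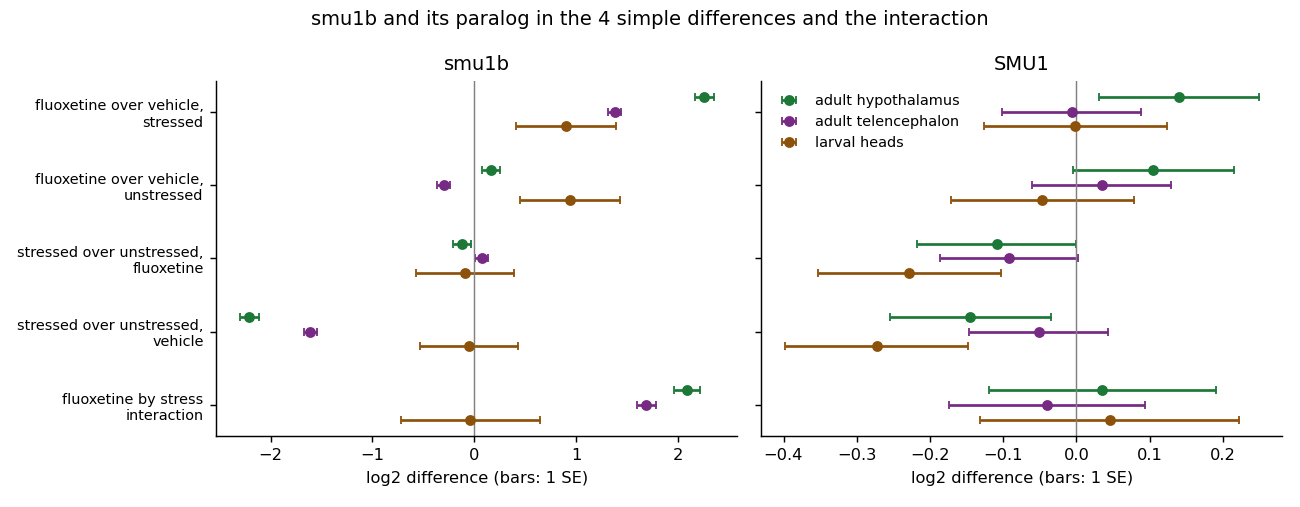
Log2 differences of smu1b (left) and SMU1 (right) in adult hypothalamus, adult telencephalon and larval heads for the 4 simple differences and the interaction; points are estimates, bars 1 SE, and the right panel has a narrower horizontal axis. In adults the simple differences of smu1b are largest where vehicle stressed fish are one side, up to 2.26 in size. Those of SMU1 run from -0.145 to 0.14 in adults and reach -0.27 in larval heads.

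IK, which encodes RED, the direct partner of SMU1 in the B complex, had 116.4 to 132.2 CPM in fluoxetine stressed and 111.6 to 170.6 CPM in fluoxetine unstressed hypothalamus, against 107.7 to 127.1 CPM in vehicle stressed and 111 to 171.7 CPM in vehicle unstressed hypothalamus. Its interaction was 0.15 ± 0.14 in hypothalamus (adjusted p = 0.646) and 0.15 ± 0.13 in telencephalon (adjusted p = 0.668). The other 4 B-complex members with an entry, MFAP1, PRPF38A, ZMAT2 and wbp4, had interactions between -0.16 and 0.20 in hypothalamus and between -0.13 and 0.09 in telencephalon. In edgeR 0 of these 5 genes passed in either region, 0 had an unadjusted p under 0.05, and DESeq2 gave 0 as well. With 0.511% and 0.8% of all genes called, 0 of 5 does not set these genes apart. For stress in vehicle hypothalamus 2 of the 5 were lower, ZMAT2 (-0.30, adjusted p = 0.014) and PRPF38A (-0.33, adjusted p = 0.0392), where 16.5% of all genes were lower. Neither passed in the telencephalon.

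The wider spliceosome lists, tri-snRNP proteins, U1 and U2 proteins, and SR proteins with their kinases, brought the splicing genes tested to 77. In edgeR 0 of 77 passed for the interaction in hypothalamus, where 0.511% of all genes did, and 0 of 77 in telencephalon, where 0.8% did. At an unadjusted p under 0.05 these counts were 7 and 3. DESeq2 called 1 in hypothalamus, TRA2B (adjusted p = 0.0065), and 0 in telencephalon. Interactions spanned -0.46 (srsf10a) to 0.40 (TRA2B) in hypothalamus and -0.50 (clk4a) to 0.41 (srsf10b) in telencephalon, with medians of 0.10 and 0.06. For stress in vehicle hypothalamus 3 of 77 were higher and 22 lower, against 20.3% and 16.5% of all genes. The telencephalon had 3 higher and 7 lower, where all genes had 15% and 11.8%. For stress with vehicle, splicing genes were also counted in each range of library numbers alone. Numbers 1 to 24 and 25 to 48 gave 3 and 16 called in hypothalamus and 5 and 6 in telencephalon. The share of all genes called in these smaller fits is not given here, so these counts cannot be weighed. For 0 of 77 splicing genes did all vehicle stressed libraries lie below or above the other 18 of their region. Of all genes 0.185% lay below and 0.468% above in hypothalamus, and 0.201% and 0.572% in telencephalon. With so few of all genes called or separated, 0 of 77 does not set the splicing genes apart.

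Several clock genes had the smu1b pattern or its mirror image. Of 57 matched clock genes 55 were tested in each adult region. For the interaction 9 were higher and 12 lower in hypothalamus, where 0.18% and 0.332% of all genes were. In telencephalon 9 were higher and 11 lower, against 0.245% and 0.555%. The counts fell to 4 of 55 called in hypothalamus with library numbers 25 to 48 alone. The hypothalamus count for the lower library numbers is not given here. In telencephalon the counts fell to 12 and 11 within the lower and the higher range. These fits had 3 libraries per group. The share of all genes called in them is not given here, so a weaker clock pattern cannot be told from fewer calls over all genes. Vehicle stressed libraries lay below all others for 9 clock genes and above all others for 9 in hypothalamus, where 0.185% and 0.468% of all genes did. In telencephalon 9 were below and 7 above, against 0.201% and 0.572%. Activators accounted for 7 of the lower interactions in hypothalamus (of 12 tested) and for 5 in telencephalon. Repressors gave 8 higher and 4 lower of 20 in hypothalamus and 8 higher and 3 lower in telencephalon. Output and modifier genes gave 1 higher and 1 lower of 23, and 1 higher and 3 lower.

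The clock genes called in the direction of smu1b in both regions were 8 entries of the repressor list and dbpb, an output gene of the PAR bZip family (1.55 in hypothalamus, 1.1 in telencephalon). PER1 (ENSDARG00000012499) had 376.6, 402.7 and 411.4 CPM in fluoxetine stressed hypothalamus as lowest, median and highest. Fluoxetine unstressed hypothalamus had 460.3, 500.9 and 559.3 CPM. Vehicle stressed hypothalamus had 195, 220.7 and 233 CPM, and vehicle unstressed hypothalamus 444.9, 460.4 and 509.8 CPM. Its vehicle stressed libraries lay below the rest, as with smu1b, but its fluoxetine stressed libraries also lay below both unstressed groups. In fluoxetine hypothalamus this PER1 entry was lower under stress too (-0.36, edgeR adjusted p = 0.00154). The PER1 interaction was 0.76 ± 0.10 in hypothalamus (adjusted p = 2.97e-05) and 0.81 ± 0.08 in telencephalon (adjusted p = 2.12e-07). For NR1D1, which encodes REV-ERB alpha, stressed hypothalamus had 167.8 to 235.7 CPM with fluoxetine and 43.7 to 67.8 CPM with vehicle. Its interaction was 1.76 ± 0.20 in hypothalamus and 1.85 ± 0.14 in telencephalon (adjusted p = 1.12e-05 and 8.62e-09). ciarta, whose mammalian counterpart CHRONO represses BMAL1 with CLOCK, had 1.55 in hypothalamus and 1.49 in telencephalon, and BHLHE41, a basic helix-loop-helix repressor, had 1.47 and 1.22.

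The activators that were called ran opposite to smu1b. So did most called members of the cryptochrome and photolyase family named here, while CRY2 went with smu1b. CRY2, a cryptochrome that represses the clock, had an interaction of 0.70 in hypothalamus and 0.79 in telencephalon, past the threshold in both and in the direction of smu1b. npas2, a partner of BMAL1, had 4.86 to 7 CPM in fluoxetine stressed and 1.33 to 2.71 CPM in fluoxetine unstressed hypothalamus. It had 6.4 to 19.9 CPM in vehicle stressed and 0.06 to 1.9 CPM in vehicle unstressed hypothalamus. Its interaction was -2.50 ± 0.48 (adjusted p = 0.00813), and in telencephalon -1.65 ± 0.24 (adjusted p = 0.000334). The 2 BMAL1 entries had -2.82 (ENSDARG00000035732) and -1.43 (ENSDARG00000006791) in hypothalamus and -1.48 and -1.04 in telencephalon, all past the threshold. cry3b, a zebrafish cryptochrome, had -2.67 and -1.95, opposite to CRY2. cry3a had -1.76 and -1.49, and cry4 passed in hypothalamus only (-0.966). cry5, listed with the repressors although in zebrafish it encodes a (6-4) photolyase, which repairs ultraviolet damage in light, had 4.29 to 4.94 CPM in fluoxetine stressed and 3.44 to 5.43 CPM in fluoxetine unstressed hypothalamus. Vehicle stressed hypothalamus had 14 to 17.2 CPM and vehicle unstressed hypothalamus 3.52 to 4.96 CPM. Its interaction was -1.89 ± 0.16 there and -2.22 ± 0.24 in telencephalon. PER2, a clock gene that light induces in zebrafish, did not pass for the interaction in either adult region (-0.42, adjusted p = 0.154, and -0.13, adjusted p = 0.66). It was higher under stress in fluoxetine as well as in vehicle fish. By size, 4 of the 55 clock genes had an interaction at least as large as that of smu1b in hypothalamus, and 3 in telencephalon.

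**Figure D4:**
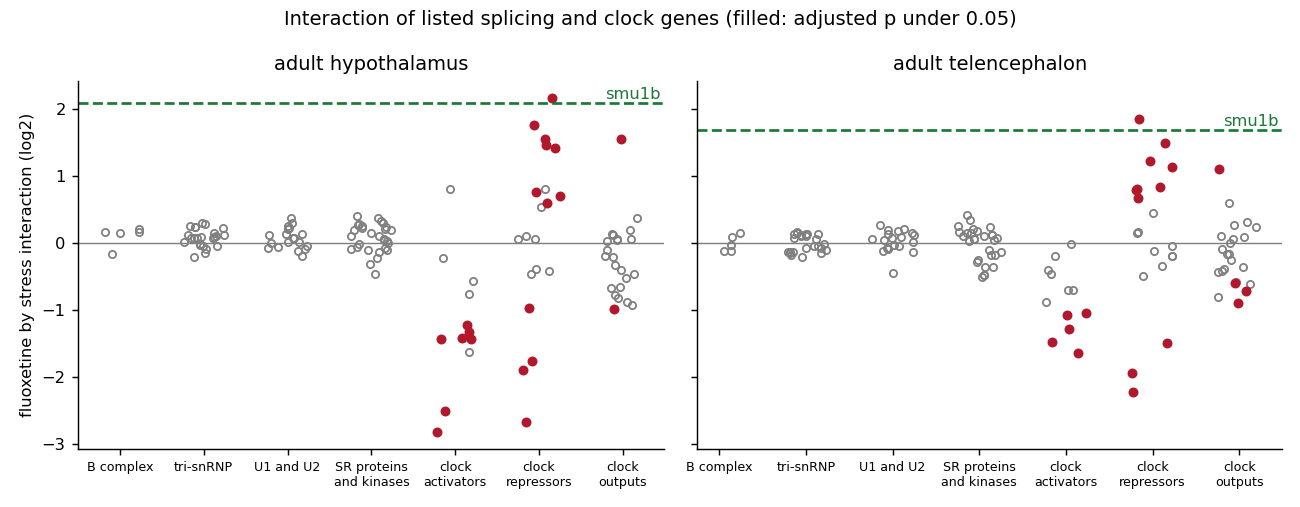
Fluoxetine by stress interaction (vertical axis, log2) of each tested gene of the splicing lists (B complex, tri-snRNP, U1 and U2, SR proteins and kinases) and clock lists (activators, repressors, outputs) in both adult regions; filled points passed at an adjusted p under 0.05, and the dashed line is smu1b. Splicing genes stay between -0.50 and 0.41, while clock genes run from -2.82 to 2.17 in the hypothalamus and from -2.22 to 1.85 in the telencephalon.

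Clock genes also differed between stressed and unstressed fluoxetine fish, in which smu1b differed little. The time of day of sampling is not given, so stress and sampling time cannot be told apart here. In fluoxetine hypothalamus 10 of 55 clock genes were higher and 1 lower under stress, where 3.6% and 2.89% of all genes were, and in fluoxetine telencephalon 17 were higher and 4 lower (6.35% and 7.26% of all genes). With vehicle these were 26 higher and 15 lower in hypothalamus (20.3% and 16.5%), and 28 higher and 11 lower in telencephalon (15% and 11.8%). The list of the reporter and 7 glucocorticoid receptor targets was higher under stress for 7 of 8 genes in fluoxetine hypothalamus and 8 of 8 in vehicle hypothalamus. The telencephalon had 7 of 8 in both. In edgeR 0 of 8 passed for the interaction in either region, where 0.511% and 0.8% of all genes did, with 1 and 2 at an unadjusted p under 0.05. At those shares 0 of 8 does not set these genes apart. Vehicle stressed libraries lay above all 18 others for 2 of the 8 in hypothalamus and for 1 in telencephalon, against 0.468% and 0.572% of all genes. FKBP5 had an interaction of -0.52 ± 0.33 (adjusted p = 0.458) in hypothalamus and -0.58 ± 0.34 (adjusted p = 0.494) in telencephalon. KLF9, a receptor target that encodes a zinc finger repressor, had -0.97 ± 0.36 (adjusted p = 0.222) and -0.75 ± 0.36 (adjusted p = 0.381).

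Across the 24 libraries of each region, the genes most like smu1b were ranked by the smaller of their Pearson r in hypothalamus and telencephalon, over 14158 genes whose mean log2 CPM reached 1 in both. The 5 highest were PER1 (0.95 and 0.96), NR1D1 (0.95 and 0.95), ciarta (0.96 and 0.94), BHLHE41 (0.94 and 0.96) and HSF2, a heat shock transcription factor (0.95 and 0.94). Of these 5, 4 belong to the clock lists and 50 of the 14158 genes do. HSF2 had an interaction of 0.69 ± 0.10 in hypothalamus and 0.69 ± 0.09 in telencephalon. The 5 most opposite were cpdp (-0.95 and -0.96), which encodes the photolyase for cyclobutane pyrimidine dimers, cry5 (-0.96 and -0.94), cry-dash (-0.95 and -0.94), a cryptochrome-family gene, the DNA repair gene xrcc1 (-0.90 and -0.90) and dhrs12 (-0.89 and -0.97). Of these 5, 3 belong to the photolyase and cryptochrome family, a grouping made after the 5 were seen. The members of that family among the 14158 genes were not counted. Of its other members in the clock lists, CRY2 had 0.95 and 0.91. Opposite to smu1b were cry3b (-0.95 and -0.875), cry3a (-0.93 and -0.875), cry4 (-0.90 and -0.58) and CRY1 ENSDARG00000045768 (-0.53 and -0.70). CRY1 ENSDARG00000011583 had 0.53 and -0.65. These r carry the group means on which smu1b was chosen, and the libraries form 2 clusters, vehicle stressed and the rest, so they describe a shared group pattern and no test is given. In all, 9 genes reached 0.9 in both regions and 3 reached -0.9.

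**Figure D5:**
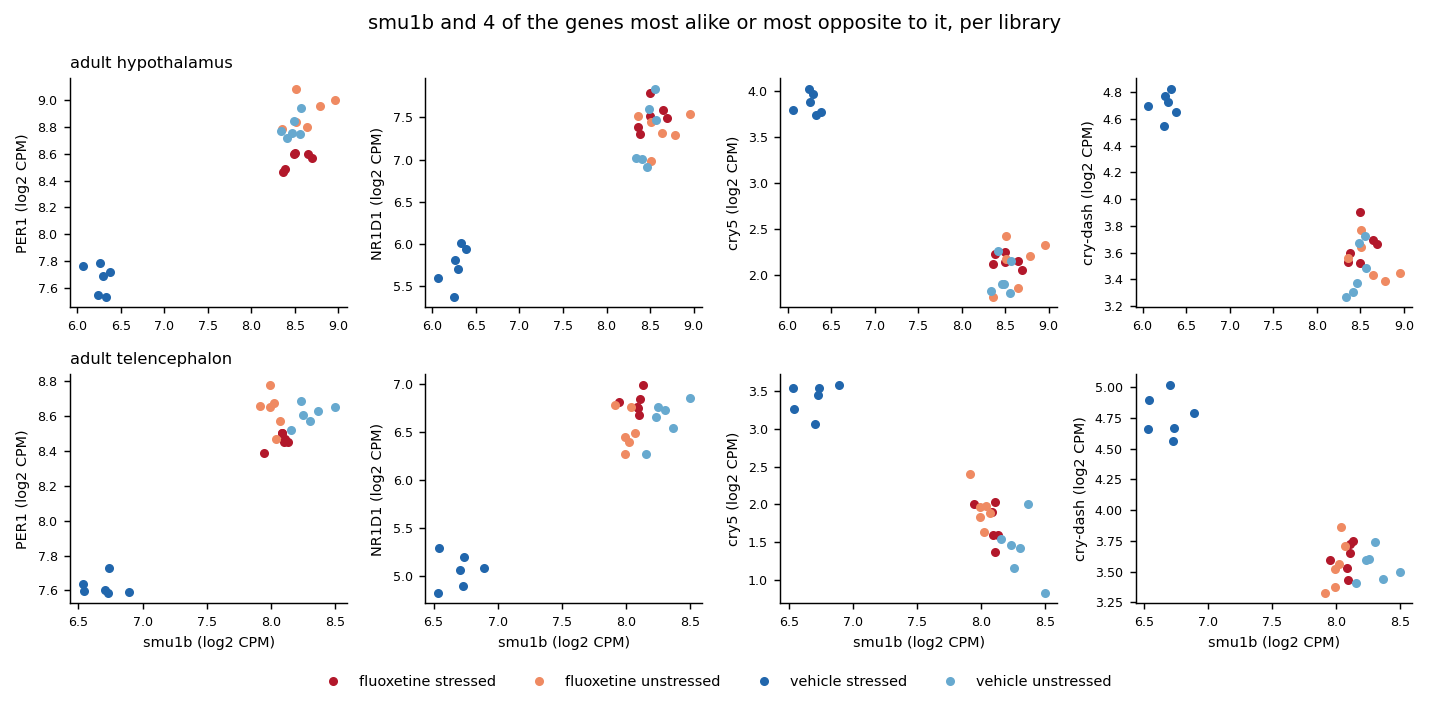
Levels of PER1 (ENSDARG00000012499), NR1D1, cry5 and cry-dash (vertical axes, log2 CPM) against smu1b (horizontal axes, log2 CPM) in each adult library, hypothalamus above and telencephalon below, coloured by group. The 6 vehicle stressed libraries form a cluster apart in every panel.

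Inside groups, smu1b showed no relation to clock genes that passed correction. After the group means were taken out, its deviations over 24 libraries were correlated with those of 55 clock genes in each region (permutations within groups, 110 tests adjusted together). In hypothalamus 0 of 55 passed and in telencephalon 0 of 55, by Pearson r or by Spearman rho. An unadjusted permutation p under 0.05 was found for 11 and 6. The share of all genes at that limit is not given here, so these counts cannot be weighed. The r values ran from -0.47 to 0.66 with a median of 0.26 in hypothalamus, where the median over all genes was 0.03, and from -0.61 to 0.60 with a median of 0.10 in telencephalon, where that of all genes was 0.01. In hypothalamus 7 of 55 clock genes reached 0.5 in size, against 3.3% of all genes, and in telencephalon 4 of 55, against 7.15%. The highest in hypothalamus were nfil3-6, of the NFIL3 family of bZip repressors (r = 0.66, rho = 0.70, adjusted permutation p = 0.113 and 0.0759), and the activator RORA (r = 0.65, rho = 0.58, adjusted permutation p = 0.113 and 0.188). Without the 2 libraries farthest from the median of smu1b their r was 0.60 and 0.50. The group means taken out there still included those libraries. Among the genes most like smu1b over groups, the within-group r in hypothalamus and telencephalon was 0.31 and 0.09 for PER1 (ENSDARG00000012499) and 0.37 and 0.23 for NR1D1. It was 0.18 and 0.315 for ciarta, 0.34 and 0.45 for BHLHE41 and 0.11 and 0.145 for HSF2. The repressor BHLHE40, with 0.93 and 0.945 over all 24 libraries of each region, had a within-group r of 0.56 in both. Its unadjusted permutation p was 0.0111 and 0.015, and the adjusted value was 0.168 in both. Without the 2 farthest libraries its r was 0.41 and 0.39. The spread of smu1b inside adult groups was narrow, with a pooled SD of 0.15 log2 units in hypothalamus and 0.10 in telencephalon. Hypothalamus and telencephalon libraries with the same group and number gave a weak correlation of their smu1b deviations that did not pass (r = 0.14, permutation p = 0.431; rho = -0.01, permutation p = 0.966; n = 24; r = -0.01 without the 2 farthest), and the labels do not say that equal numbers share fish.

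Larval heads, whose smu1b values had no part in choosing the gene, varied more within groups. There the deviations from the mean of replicates 1 to 3 or 4 to 6 of each group were correlated with 54 clock genes, an analysis added after the adult values were seen. By Pearson r 8 passed, all positive, and 59.3% of the 54 reached 0.5 in size, against 19.3% of all 20259 genes. By Spearman rho 11 passed, among them the activator bmal2 with a negative value (rho = -0.73, adjusted permutation p = 0.0263). Its Pearson r of -0.89 did not pass (adjusted permutation p = 0.0916). The strongest were CRY2 (0.95), PER1 (ENSDARG00000012499, 0.95, rho = 0.76) and BHLHE41 (0.94, rho = 0.88), with adjusted permutation p of 0.0294, 0.0299 and 0.0255. The 2 libraries farthest from the median of smu1b were vehicle unstressed replicates 4 and 6. Without them 0 of 54 passed, 10 had an unadjusted permutation p under 0.05, and r was 0.79 for PER1 and 0.77 for BHLHE41. The means subtracted still included these 2 libraries, so the deviation of vehicle unstressed replicate 5 still depended on them. Without the whole vehicle unstressed group 0 passed as well. Without that group r was 0.745 for BHLHE41, 0.581 for PER1 (ENSDARG00000012499) and 0.421 for CRY2. Their adjusted permutation p was 0.13, 0.249 and 0.341. No gene passed the threshold without those libraries, but fewer libraries also make it harder to reach. The share of all genes passing these larval permutation tests, adjusted or not, is not given here.

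The size of those swings can be read from the values. In vehicle unstressed larvae PER1 (ENSDARG00000056885) had 43.5, 44.2 and 43.5 CPM in replicates 1 to 3 and 271.4, 232.4 and 70.2 CPM in replicates 4 to 6. NR1D1 had 113.9, 141.7 and 129.3 CPM and then 431.2, 415.1 and 206.1 CPM. Both genes were low and high in the libraries in which smu1b was. Neither was among the genes that passed in the larval correlation. This PER1 entry had r = 0.90 (adjusted permutation p = 0.241), and NR1D1 had r = 0.79 (adjusted permutation p = 0.248). Without the vehicle unstressed group their r was 0.05 and -0.20. For the larval clock lists, 25 of 54 genes were higher and 0 lower under stress with vehicle (5.82% and 15.4% of all genes), and 16 higher and 0 lower with fluoxetine (1.9% and 0.439%). Without vehicle unstressed replicates 1 to 3 the vehicle counts were 18 higher and 1 lower of 55. In that fit 2.64% of 20524 genes were called, higher or lower. Only 2 clock genes passed for the larval interaction, where 0.133% of all genes did: PER2 (1.73 ± 0.32, adjusted p = 0.0296) and cry5 (1.26 ± 0.25, adjusted p = 0.0446). The cry5 interaction was thus positive in larval heads and negative in both adult regions.

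Other genes near or related to smu1b were looked at in the same way. In the gene order of the GRCz12tu assembly smu1b lies between dnaja1, which encodes a J-domain co-chaperone, and rps6, which encodes a protein of the small ribosomal subunit. For dnaja1 the interaction was -0.30 ± 0.11 in hypothalamus (adjusted p = 0.215) and -0.09 ± 0.10 in telencephalon (adjusted p = 0.749). For rps6 it was 0.20 ± 0.19 (adjusted p = 0.65) and 0.46 ± 0.22 (adjusted p = 0.363). Of the 10 nearest genes, 5 on each side, 7 had an entry and 4 were tested in adults. In hypothalamus 0 of these 4 passed in edgeR and 0 in DESeq2, with 2 at an unadjusted p under 0.05. In telencephalon 1 of 4 passed, where 0.8% of all genes did and in hypothalamus 0.511%. It was si:dkey-9i23.16, with an interaction opposite in sign to that of smu1b (-1.63 ± 0.37, edgeR adjusted p = 0.028). Its levels there were low, 0.63 to 1.54 CPM in vehicle unstressed and 1.565 to 5.33 CPM in vehicle stressed libraries. Fluoxetine stressed libraries had 2.55 to 4.94 CPM and fluoxetine unstressed libraries 2.06 to 4.99 CPM. The group apart was thus vehicle unstressed, and not vehicle stressed as for smu1b. The cold-inducible RNA-binding protein gene cirbpb, in mammals a post-transcriptional regulator of clock mRNAs, had 761 to 1020 CPM in vehicle stressed hypothalamus, above all 18 other libraries of the region (as for 0.468% of all genes), and 804 to 1140 CPM in vehicle stressed telencephalon, again above all others (0.572%). Its interaction did not pass (-0.37, edgeR adjusted p = 0.153, and -0.41, adjusted p = 0.0658). In vehicle fish of both regions cirbpb was higher under stress (0.43, edgeR adjusted p = 0.000284, and 0.53, adjusted p = 1.09e-05). The second gene of that list, cirbpa, did not pass for stress with vehicle (-0.12, adjusted p = 0.462, and -0.09, adjusted p = 0.562) or for the interaction (-0.07, adjusted p = 0.864, and 0.03, adjusted p = 0.96).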

How the data were processed

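RNA was measured in 72 libraries, in 12 groups of 6 taken from the labels. The authors deposited whole-number read counts per gene, 1 column per library. Per the labels' protocols, total RNA was column-extracted and libraries came from a stranded kit for mRNA. The submitters' processing notes name bcl2fastq 2.17.1.14, cutadapt, STAR 2.5 and DESeq2; the sources used here do not give the counter, whether it used strand, or the build and annotation. Symbols came from a table of Ensembl identifiers, which gives many zebrafish genes their human ortholog's name; shared symbols are printed with the identifier, and reads can split between such copies. No sequences or gene lengths were used here.

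Each tissue was fitted as 4 groups in edgeR 4.0.16 (R 4.3.3) with TMM scaling and robust quasi-likelihood tests on genes kept by filterByExpr (limits of 10 counts and 15 in total), adjusted by Benjamini and Hochberg over all genes tested, with a threshold of 0.05. The region average was fitted over 48 adult libraries and the larval to adult difference over all 72. CPM used TMM scaling over all 72 libraries; correlations used log2 CPM with a prior count of 2 and 100000 permutations within groups. The edgeR steps and the permutation test were tested on simulated data. The gene, the lists and the tests were chosen with earlier results of these data known. The rule for named genes took smu1b, its paralog, B-complex members, up to 12 clock genes, stress-label checks, and the 5 genes most like and most opposite. The closing section also lists the other clock genes called for the interaction. Named after their values were seen were srsf10a, TRA2B, clk4a, srsf10b, cirbpb, cirbpa, CRY2, CRY1, cry3a, cry4, dbpb, nfil3-6, RORA and si:dkey-9i23.16. Alternatives were DESeq2 1.42.0, RLE scaling, no filter, a replicate block, library number ranges, 2-group fits and left-out libraries. Replicate numbers were checked by correlating the deviations of same-numbered libraries. Within a tissue every correlation exceeded 0.1 in 0 of 18 pairs of groups. Between hypothalamus and telencephalon 22 of 24 did (-0.046 to 0.537), with all 6 in 2 of 4 groups, so equal numbers went together in part across regions; the labels give no reason. Groups were also checked for duplicated libraries, and 0 were found.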

Additional observations from a re-analysis of the deposited data

Results flagged for a closer look

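In 6 of the 84 groups examined, each of 6 libraries, 1 library stood far from the others of its group by Dixon's criterion, which chance meets in about 1 group in 20. The telencephalon fluoxetine stressed replicate 6 had 249.3 CPM of smu1b, below the others at 272.9 to 282.4 CPM. SMU1 had 33.04 CPM in hypothalamus fluoxetine unstressed replicate 5 (others 23.28 to 25.7), 31.78 CPM in hypothalamus vehicle unstressed replicate 4 (others 21.46 to 25) and 34.14 CPM in larval vehicle stressed replicate 2 (others 26.66 to 29). MFAP1 had 71.3 CPM in telencephalon vehicle stressed replicate 4 (others 49.88 to 57.7), and wbp4 had 4.202 CPM in hypothalamus vehicle unstressed replicate 4 (others 2.767 to 3.161).

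The stress difference was unlike in fluoxetine and vehicle fish for clock genes in 43 tests of the interaction (edgeR, adjusted p under 0.05; log2, fluoxetine minus vehicle). Positive values in hypothalamus and telencephalon were found for BHLHE40 (0.593 and 0.666), PER1 ENSDARG00000012499 (0.763 and 0.813), PER1 ENSDARG00000056885 (1.42 and 1.14), NR1D1 (1.76 and 1.85), BHLHE41 (1.47 and 1.22), dbpb (1.55 and 1.1), CRY2 (0.696 and 0.788), nr1d4b (2.17 and 0.836) and ciarta (1.55 and 1.49). Negative values in hypothalamus and telencephalon were found for BMAL1 ENSDARG00000006791 (-1.43 and -1.04), BMAL1 ENSDARG00000035732 (-2.82 and -1.48), npas2 (-2.5 and -1.65), rorcb (-1.22 and -1.07), rorca (-1.43 and -1.28), cry5 (-1.89 and -2.22), cry3a (-1.76 and -1.49), cry3b (-2.67 and -1.95) and nfil3-5 (-0.983 and -0.892). CLOCK ENSDARG00000011703 (-1.42), bmal2 (-1.32) and cry4 (-0.966) passed in hypothalamus, and NFIL3 (-0.717) and nfil3-6 (-0.598) in telencephalon; whether the regions differ in these was not tested. In larval heads PER2 (1.73) and cry5 (1.26) passed.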

How the results depend on the processing

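Values of smu1b in adults kept their direction under each alternative run, with 1 exception: the hypothalamic fluoxetine difference in unstressed fish was 0.336 with library numbers 1 to 24 and -0.0214 with numbers 25 to 48 (0.17 with all). The hypothalamic interaction moved to 1.89 and 2.31 in these ranges. In larval heads the fluoxetine difference among stressed fish passed without vehicle unstressed replicates 1 to 3 (0.902) and in the 2-group fit (0.892), and the average passed in DESeq2 (0.919). Leaving out each library in turn gave 0.692 to 1.45 for fluoxetine in unstressed larvae, past the threshold without vehicle unstressed replicate 4 (1.45, adjusted p = 0.0315), and 0.777 to 1.18 for the average, past it without vehicle unstressed replicate 4 (adjusted p = 0.0146) or 5 (1.12, adjusted p = 0.0239). It gave -0.329 to -0.168 for SMU1 under stress in vehicle larvae, past it without vehicle unstressed replicate 4 (-0.321, adjusted p = 0.0439). Clock genes called for the interaction numbered 4 in hypothalamus (numbers 25 to 48) and 12 and 11 in telencephalon (numbers 1 to 24 and 25 to 48). Splicing genes called for it in hypothalamus numbered 1 in DESeq2 and 1 without vehicle stressed replicates 1 and 4 (TRA2B in both); for stress with vehicle they numbered 3 and 16 in hypothalamus, against 25 with all libraries, and 5 and 6 in telencephalon, against 10. Ranges hold 3 libraries per group, and the shares of all genes called in them are not given here, so their counts cannot be weighed. Other causes were not tested.

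Replicate numbers did not pair groups within a tissue, and went together across regions for 22 of 24 numbers without meeting the bar for pairing in every group. With the number as a block no smu1b call changed. The larval average was 1.05, the region average 0.254 (edgeR adjusted p = 4.01e-07), and the interaction 2.09 in hypothalamus and 1.68 in telencephalon. In these fits 20 and 22 clock genes were called for the interaction, and 30 and 15 splicing genes for stress with vehicle. The share of all genes called in the block fits is not given here, so these counts cannot be weighed. The stressor, the time of day and the spread of larval vehicle libraries limit what these counts can show.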
